A study of Homo sapiens with 4 samples.

Results

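The genes described here are 9 microRNA hairpins in 3 paralogous clusters and LINC00478, the long non-coding transcript that hosts one of the clusters. They were taken by gene name from the authors' deposited comparison, and all 10 names were found among its 34675 rows. Each cluster holds a member of the miR-99/100 family, a member of the let-7 family and a member of the miR-125 family. The cluster on chromosome 21 consists of MIR99A, MIRLET7C and MIR125B2, the cluster on chromosome 19 of MIR99B, MIRLET7E and MIR125A, and the cluster on chromosome 11 of MIR100, MIRLET7A2 and MIR125B1. The genes were chosen with their values in this comparison known, so those values are a description and carry no test.

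The cells were MDA-MB-231, an established mesenchymal-like line of triple-negative breast carcinoma. One stable line carried a pcDNA plasmid with FLAG-tagged wildtype LKB1, the kinase encoded by STK11, and the other carried the pcDNA vector alone. Both grew on plastic in DMEM with serum, and total RNA went into stranded whole-transcriptome libraries, 2 from the LKB1 line and 2 from the vector line. The labels do not say whether a line was 1 clone or a pool, or whether its libraries came from separate cultures. Library titles carry the term fmRNA for the LKB1 line and mRNA for the vector line, and 1 LKB1 library carries another run tag than the other 3 libraries; preparation, run and plasmid cannot be told apart.

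The table holds no value per library. Read totals per line, each the sum of 2 libraries, were recovered from its fold column, which puts the depths at a ratio of 1.04, LKB1 over vector. No header states which line is on top of the fold, and LKB1 was taken to be, since this reading gives STK11 2112 reads in the LKB1 line and 1321 in the vector line (log2 fold 0.62, adjusted p = 0.00105 in the deposited table). STK11 fixed the direction and so is no independent check of it. Of the markers of the cell line, VIM, CD44, EGFR, MSN and AXL were too deep for recovery, with more than 3000 reads in a line. Of the listed markers MSN (log2 fold -0.55, adjusted p = 0.00314) and AXL (log2 fold 0.42, adjusted p = 0.0387) were called in the deposited table. ESR1, which should be nearly silent, had 12 reads in the LKB1 line and 8 in the vector line, and PGR had 0 in the LKB1 line and 4 in the vector line. CDH1, the epithelial cadherin gene listed as low or absent in these cells, had 278 reads in the LKB1 line and 431 in the vector line. EPCAM, also listed so, had 209 in the LKB1 line and 152 in the vector line. ERBB2, listed so as well, was not low, with 1364 reads in the LKB1 line and 1104 in the vector line. Of the 2 groups, 1 failed a check of sample identity against that cell line, and its part in the differences below was not tested. Intervals on read totals cover counting error only, and more expressing cells cannot be told apart from more RNA per cell.

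MicroRNAs are cut from hairpins in longer primary transcripts, first by DROSHA with DGCR8 in the nucleus and then by DICER1 in the cytoplasm, and are loaded onto Argonaute proteins. Bases 2 to 8 of the mature strand, the seed, pair with messenger RNAs, mostly in 3′ UTRs, and lower their output. Let-7 is known for restraining growth and oncofetal genes such as HMGA2 and IGF2BP1, and its maturation is blocked by the LIN28 proteins. The miR-99/100 family is known for targets in the mTOR pathway, and miR-125, the relative of worm lin-4, for LIN28 and apoptosis genes such as BAK1.

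The 9 hairpins encode 8 different mature 5p strands with 3 seeds, printed here from RefSeq (GRCh38.p14) with the seed in capitals because the seed is what unites the paralogs of the 3 clusters.
hsa-let-7c-5p: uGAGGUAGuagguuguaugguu
hsa-let-7e-5p: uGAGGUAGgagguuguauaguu
hsa-let-7a-5p: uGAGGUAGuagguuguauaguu
hsa-miR-99a-5p: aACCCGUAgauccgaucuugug
hsa-miR-99b-5p: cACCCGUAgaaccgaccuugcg
hsa-miR-100-5p: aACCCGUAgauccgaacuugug
hsa-miR-125a-5p: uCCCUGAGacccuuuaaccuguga
hsa-miR-125b-5p: uCCCUGAGacccuaacuuguga
Counted from 1 at the 5′ end, let-7c differs from let-7a by A19G and let-7e differs from it by U9G. MiR-99a differs from miR-100 by A16U. MiR-125b is encoded by both MIR125B1 and MIR125B2, and let-7a by MIRLET7A2, MIRLET7A1 and MIRLET7A3, so a read of these mature strands fits several places of the genome. All 9 hairpin genes were found in the RefSeq table, 8 of them with the hairpin.

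The rows of the table span whole hairpins, so their reads do not tell a mature strand from its precursor or from a longer transcript. The hairpins with the most reads in the LKB1 line, MIR99B and MIRLET7C, and 2 that had almost none, MIRLET7A2 and MIR125B1, are shown from RefSeq with both mature arms in capitals. In GRCh38.p14 they lie at chr19:51692612-51692681 on the plus strand, chr21:16539828-16539911 on the plus strand, chr11:122146522-122146593 on the minus strand and chr11:122099757-122099844 on the minus strand.
MIR99B: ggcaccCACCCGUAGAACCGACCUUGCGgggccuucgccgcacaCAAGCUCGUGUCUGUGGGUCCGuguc
MIRLET7C: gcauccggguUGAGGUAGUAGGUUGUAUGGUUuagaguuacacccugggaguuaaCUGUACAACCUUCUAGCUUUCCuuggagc
MIRLET7A2: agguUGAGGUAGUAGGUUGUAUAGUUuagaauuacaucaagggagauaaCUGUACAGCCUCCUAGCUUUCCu
MIR125B1: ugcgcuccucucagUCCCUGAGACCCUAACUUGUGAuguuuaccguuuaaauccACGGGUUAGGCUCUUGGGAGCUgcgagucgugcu
The rows of the table lie at chr19:52195865-52195934 for MIR99B, chr21:17912143-17912236 for MIRLET7C, chr11:122017229-122017301 for MIRLET7A2 and chr11:121970465-121970552 for MIR125B1, all in hg19, the build that the submitters' processing notes name. For MIRLET7C the row is 94 bases long, against 84 bases of the RefSeq hairpin.

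Taken over the 9 hairpins, 704 reads were found in the LKB1 line and 14 in the vector line, a ratio per depth of 48.4 with an exact (Clopper-Pearson) 95% interval of 28.6 to 88.9. Of the 10 genes 7 had an adjusted p under 0.05 in the authors' deposited table and all of these were higher in the LKB1 line, where, of all rows deposited, 2.55% were called higher, 3.24% lower and 5.79% in either direction. Over all 735 rows of type miRNA 4.76% were called higher, 0.68% lower and 5.44% in either direction. The genes were picked from this comparison, so nothing is read from that count. The uncalled ones were MIR125B2, MIRLET7A2 and MIR125B1, with 1 to 3 reads each in the LKB1 line.

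**Figure D1:**
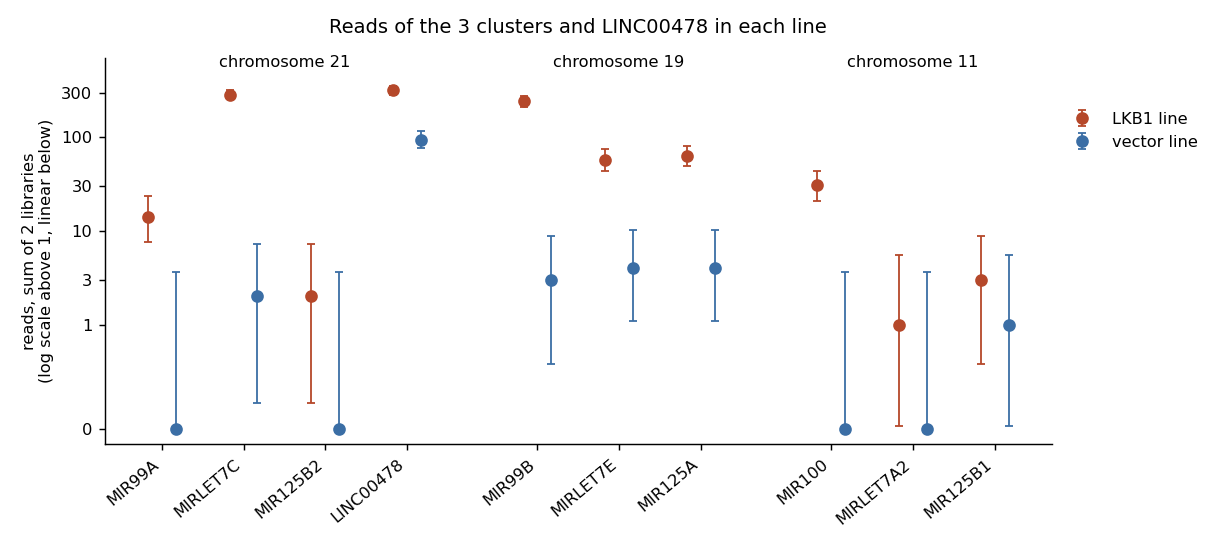
Reads of each of the 10 genes (y axis, sum of 2 libraries, log scale above 1 and linear below) in the LKB1 line and the vector line, grouped by chromosome, with exact Poisson 95% intervals that cover counting error only. In the LKB1 line 6 hairpins lie between 14 and 288 reads, while no hairpin exceeds 4 reads in the vector line.

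In the chromosome 21 cluster MIRLET7C held 288 of the 304 reads of the LKB1 line. MIRLET7C (ENSG00000199030.1) had 288 reads in the LKB1 line and 2 in the vector line, a ratio of 138 with an interval of 38.0 to 1149. MIR99A (chr21:17911409-17911489, plus strand), 653 bases upstream of it, had 14 reads in the LKB1 line and 0 in the vector line. Against a floor of 3 reads over the 2 vector libraries MIR99A was 4.49-fold higher, and the exact 95% lower limit of its ratio was 3.19. MIR125B2 (chr21:17962557-17962645, plus strand), which lies 50320 bases downstream of MIRLET7C, had 2 reads in the LKB1 line and 0 in the vector line, too few for a fold. In the LKB1 line the 3 hairpins thus spanned 2 to 288 reads.

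LINC00478, named MIR99AHG in GENCODE 29, is the host of this cluster, and all 3 hairpins lie in its introns on the same strand. Its row (ENSG00000215386.5, hg19 chr21:17442842-17982094, plus strand) had 322 reads in the LKB1 line and 95 in the vector line, a ratio of 3.26 with an interval of 2.59 to 4.14. The row was therefore higher in the LKB1 line too, but by far less than MIRLET7C, whose interval begins at 38.0. In the authors' deposited table their log2 folds were 1.70 for LINC00478 and 6.95 for MIRLET7C. The LINC00478 row spans the 3 hairpins, which held 304 reads in the LKB1 line and 2 in the vector line. Whether reads of the hairpins also count towards it is not given. If they do, they would make up most of its 322 reads in the LKB1 line and few of its 95 in the vector line. Neither the size nor the direction of a change of the host apart from the hairpins was tested. A hand-drawn list held 4 host or neighbouring transcripts of let-7, miR-99/100 and miR-125 genes with at least 40 reads. LINC00478 was the one called, where 5.77% of all rows of that depth were called higher and 6.86% lower. LINC00478 was chosen with its values known, so nothing is read from that count. HUWE1, the ubiquitin ligase gene that hosts MIR98, had a log2 fold of 0.12. WDR82, the histone methylation cofactor gene beside MIRLET7G, had 2449 reads in the LKB1 line and 2402 in the vector line.

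All 3 hairpins of the chromosome 19 cluster, which lie within 0.728 kb, were called. MIR99B (ENSG00000207550.1) had 243 reads in the LKB1 line and 3 in the vector line, a ratio of 77.9 with an interval of 26.3 to 380. MIRLET7E (chr19:52196039-52196117, plus strand), 104 bases downstream, had 58 reads in the LKB1 line and 4 in the vector line (ratio 13.9, interval 5.16 to 52.9). MIR125A (chr19:52196507-52196592, plus strand), a further 389 bases on, had 64 reads in the LKB1 line and 4 in the vector line (ratio 15.4, interval 5.73 to 58.2). The intervals of the 3 ratios overlap, and the difference between the ratios was not tested.

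The chromosome 11 cluster rested on MIR100 alone. MIR100 (ENSG00000207994.1, chr11:122022937-122023016, minus strand) had 31 reads in the LKB1 line and 0 in the vector line. Against the floor of 3 reads it was 9.94-fold higher, and the exact 95% lower limit of its ratio was 7.61. MIRLET7A2 had 1 read in the LKB1 line and 0 in the vector line, and MIR125B1 had 3 in the LKB1 line and 1 in the vector line. Both are at or under the floor, and no difference was detectable for them. The cluster held 35 reads in all in the LKB1 line and 1 in the vector line, the fewest of the 3 clusters; the chromosome 19 cluster held 365 in the LKB1 line and 11 in the vector line, and the chromosome 21 cluster 304 in the LKB1 line and 2 in the vector line.

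Reads were also set against the length of the row. The reads do not tell a mature strand from a longer transcript, so this orders rows and not levels of mature microRNA. In the LKB1 line MIR99B led with 347 reads per 100 bases (exact Poisson 95% interval 305 to 394), and MIRLET7C followed with 306 (272 to 344), which overlaps it. MIR125A and MIRLET7E came next, with 74.4 and 73.4 (55.7 to 94.9 for MIRLET7E) reads per 100 bases, and their intervals overlap. MIR100 had 38.8 (26.3 to 55.0) and MIR99A 17.3, and the upper end of the interval of MIR99A lies just within that of MIR100. MIR125B1, MIR125B2 and MIRLET7A2 were lowest, at 3.41, 2.25 and 1.37 reads per 100 bases. In the vector line the highest of the 9 was MIRLET7E at 5.06 reads per 100 bases, from 4 reads.

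By seed, the let-7 hairpins of the clusters had 347 reads in the LKB1 line and 6 in the vector line. The miR-99/100 hairpins had 288 in the LKB1 line and 3 in the vector line, and all 3 of them were called. The miR-125 hairpins had 69 in the LKB1 line and 5 in the vector line, and MIR125A was the called one. The ratios were 55.6 (interval 25.3 to 153), 92.3 (31.3 to 450) and 13.3 (5.42 to 42.2), with overlapping intervals.

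The hairpins without a detectable difference share a property that did not enter their choice. Each of the 6 called hairpins encodes a 5p strand found at 1 locus of the RefSeq table, whereas MIR125B2 and MIR125B1 share theirs and MIRLET7A2 shares its own with 2 more loci. Rows with shared mature arms held few reads over the whole table. Of 735 rows of type miRNA 548 matched the RefSeq table by name, and 55 of these had a mature arm present at 2 or more loci. None of the 55 was called in either direction by the authors' edgeR values (1 at an unadjusted p under 0.05), against 31 called higher and 2 called lower of the 493 whose arms each occur at 1 locus. At least 20 reads were found for 2 of the 55 and for 62 of the 493. How reads with several places in the genome were handled is not given in the sources used here, and the part of this in the values was not tested; the near absence of reads at MIRLET7A2, MIR125B1 and MIR125B2 is uncertain for this reason.

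Other let-7 loci did not all move alike. MIRLET7I had 35 reads in the LKB1 line and 2 in the vector line, with an adjusted p of 1.15e-05 in the authors' deposited table. MIRLET7B, the deepest of the let-7 rows outside the clusters, had 249 reads in the LKB1 line and 240 in the vector line. MIRLET7D had 33 in the LKB1 line and 20 in the vector line (adjusted p = 0.983 there). The remaining 6 loci, MIRLET7A1, MIRLET7A3, MIRLET7F1, MIRLET7F2, MIRLET7G and MIR98, had at most 4 reads in a line. Of the 9 let-7 loci outside the clusters 1 was called, and it was higher.

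Many microRNA rows outside these clusters were higher too. At an adjusted p under 0.05, 26 of the 95 rows of type miRNA with 20 or more reads were higher and 5 were lower, which is 27.4% and 5.26%; with the 5 cluster hairpins that have such totals left out, 21 of 90 were higher. Among rows whose name starts with MIR the counts were 25 and 4 of 87, or 28.7% and 4.6%, and without the cluster hairpins 20 and 4 of 82, or 24.4% and 4.88%. The 26 had 19 to 416 reads in the LKB1 line (median 48) and 0 to 11 in the vector line (median 3). Of the rows not called higher, the 64 with recovered totals had 3 to 1848 reads in the LKB1 line (median 27.5) and 6 to 2468 in the vector line (median 30). Summed, the 26 had 2408 reads in the LKB1 line and 86 in the vector line. The 64 had 7276 in the LKB1 line and 8707 in the vector line. The rows were split by the call itself, so these levels and sums describe the split and are no result. With at most 11 reads in the vector line, the 26 reached 20 reads only through the LKB1 line. Among the 95 rows MIRLET7C ranked 2, MIR100 ranked 4, MIR99B ranked 9, MIR125A ranked 18 and MIRLET7E ranked 21 by fitted log2 fold; the rank of MIR100, which has 0 reads in the vector line, depends on the prior count of the fit.

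**Figure D2:**
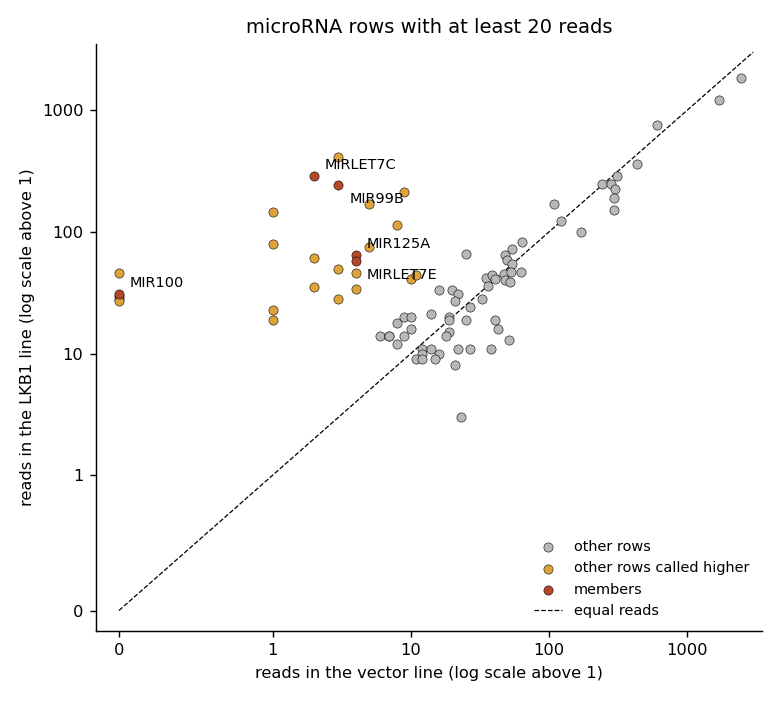
Reads in the LKB1 line (y axis) against reads in the vector line (x axis) for rows of type miRNA with at least 20 reads and recovered totals; both axes are logarithmic above 1, and the dashed line marks equal reads. The 5 cluster hairpins that reach 20 reads (MIRLET7C, MIR99B, MIR125A, MIRLET7E and MIR100) lie with the other rows called higher, at 0 to 11 reads in the vector line, and the rows not called higher have 6 to 2468 reads there. Rows are coloured by the call itself, so this separation is no result.

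Outside the clusters the largest fitted rises were those of MIR127, MIR221 and MIR27A. MIR127 had 46 reads in the LKB1 line and 0 in the vector line, 14.7-fold higher against the floor of 3 reads (exact 95% lower limit 11.5). MIR221 had 416 reads in the LKB1 line and 3 in the vector line (ratio 133, interval 45.3 to 649). MIR27A had 30 reads in the LKB1 line and 0 in the vector line, 9.62-fold higher against that floor (exact 95% lower limit 7.35). The largest falls were those of MIR4683, with 3 reads in the LKB1 line and 23 in the vector line (ratio 0.125, interval 0.0241 to 0.415), of MIR4737, with 13 in the LKB1 line and 51 in the vector line, and of MIR639, with 11 in the LKB1 line and 38 in the vector line. Other short RNAs were also counted over rows with at least 20 reads. The microRNA rows called higher reached that total only through the LKB1 line. Over all 735 rows of type miRNA 4.76% were called higher. The shares of the classes are therefore not compared. Of 266 small nucleolar RNA rows 15 were higher and 1 lower (5.64% higher, median log2 fold 0.20). Among the 123 of them up to 100 bases long 10 were higher and 1 lower (8.13% higher, median 0.24). Of 50 small nuclear RNA rows 3 were higher (median 0.10). The median of the 95 microRNA rows was 0.21, close to that of the small nucleolar RNA rows, and that of the 90 without the cluster hairpins was 0.07. The part of library preparation, which the titles name differently for the lines, in the microRNA values was not tested.

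Of 35 microRNA rows of any depth called higher, 19 lay inside a same-strand row of another type. These 19 were picked for their rise, their low read totals need a large fold to be called, and 7 of them had 0 reads in the vector line, so their folds cannot be set against those of the spanning rows as a result. The spanning rows had a median log2 fold of 0.52. Of the 17 different spanning rows 7 were called higher and 0 lower (9 and 0 at an unadjusted p under 0.05). Of all rows with at least 40 reads 5.77% were called higher and 6.86% lower, while the 17 carry no read limit. They were reached through microRNA rows picked for their rise, so nothing is read from their count. LINC00478 was among the 7. Whether reads of a microRNA row also count towards the row that spans it is not given, and the part of this in the 7 calls was not tested. MCM7, the replication helicase subunit gene that spans MIR93 and MIR25, had a log2 fold of 0.24 in the authors' deposited table (adjusted p = 0.746), while MIR93 had 171 reads in the LKB1 line and 5 in the vector line. SMC4, a condensin gene that spans MIR15B, had 2123 reads in the LKB1 line and 2067 in the vector line, while MIR15B had 61 in the LKB1 line and 2 in the vector line. MCM7 and SMC4 were chosen after their values were seen.

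**Figure D3:**
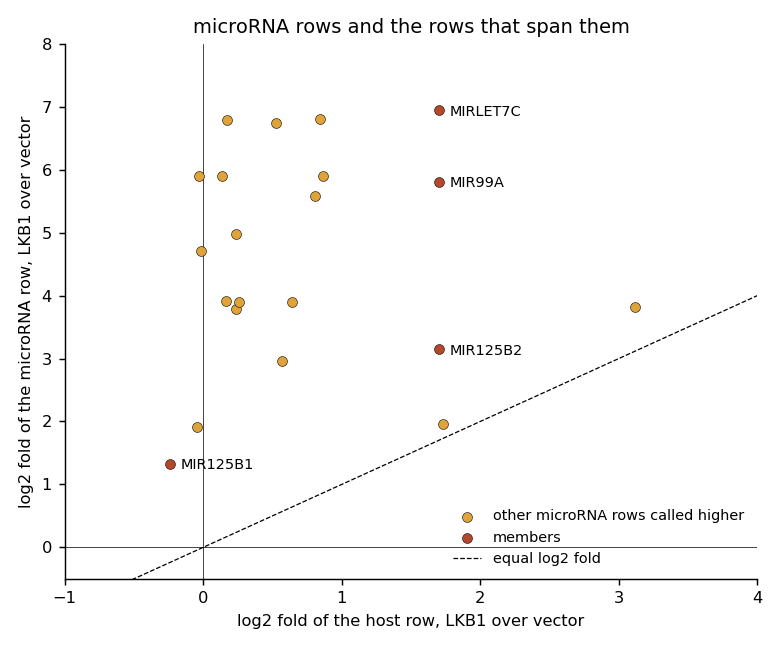
Log2 fold (LKB1 over vector, from the authors' deposited table) of microRNA rows (y axis) against that of the same-strand row that spans them (x axis), for microRNA rows called higher and for the cluster hairpins with such a row; the dashed line marks equal folds. The called microRNA rows were picked for their rise, so their place above the line is no result; MIRLET7C is at 6.95 against 1.70 for LINC00478. Folds of rows with 0 reads in the vector line, such as MIR99A, depend on the prior count of the fit.

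The host of the chromosome 11 cluster did not pass the test. MIR100HG, the host in GENCODE 29, has the identifier ENSG00000255248, which the deposited table lists as RP11-166D19.1 over a shorter stretch that covers MIR125B1 but not MIR100. This row had 320 reads in the LKB1 line and 364 in the vector line (log2 fold -0.24 with an adjusted p of 0.898, authors' deposited table). RP11-820L6.1, which lies upstream of MIR100 on the same strand and ends 3.11 kb before it, had 263 reads in the LKB1 line and 340 in the vector line (log2 fold -0.43 with an adjusted p of 0.327, authors' deposited table). Both rows had fewer reads in the LKB1 line, within a difference that did not pass the test, while MIR100 between them was called higher.

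The chromosome 19 hairpins lie in an intron of SPACA6 in GENCODE 29 and overlap exons of SPACA6P-AS on the opposite strand. The deposited table gives the SPACA6 identifier as LINC00085 and starts it directly after MIR125A. LINC00085 had 97 reads in the LKB1 line and 134 in the vector line (log2 fold -0.52 with an adjusted p of 0.466, authors' deposited table). The zinc finger gene ZNF175 on the other side had 268 reads in both lines. FPR1, a formyl peptide receptor gene, had 195 reads in the LKB1 line and 123 in the vector line, and ETFB, an electron transfer flavoprotein gene, had 401 in the LKB1 line and 490 in the vector line; neither passed the test. Whether counting used strand is not given, so reads of the antisense transcript cannot be told apart from those of the hairpins.

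Genes near the clusters moved in no common direction. Within 1 Mb of the chromosome 19 cluster 28 other rows had at least 40 reads, with a median log2 fold of 0.11, and none of them was called in either direction by the authors' edgeR adjusted p (3 higher and 1 lower at an unadjusted p under 0.05). Within 1 Mb of the chromosome 11 cluster there were 12 such rows, with a median of -0.09, of which 1 was higher and 1 lower. These were SORL1, a sorting receptor gene, with 843 reads in the LKB1 line and 341 in the vector line, and UBASH3B, a phosphatase gene, with 814 in the LKB1 line and 1340 in the vector line. Around the chromosome 21 cluster 2 such rows were found besides LINC00478, the deubiquitinase gene USP25 with 372 reads in the LKB1 line and 511 in the vector line, and CXADR, the coxsackievirus and adenovirus receptor gene, with 411 in the LKB1 line and 204 in the vector line. CXADR was called higher. Further out, NRIP1, a nuclear receptor corepressor gene, had 317 reads in the LKB1 line and 656 in the vector line, and BTG3, an antiproliferative gene, had 279 in the LKB1 line and 487 in the vector line, both called lower. SC5DL, a sterol desaturase gene beyond SORL1, had 335 reads in the LKB1 line and 340 in the vector line.

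**Figure D4:**
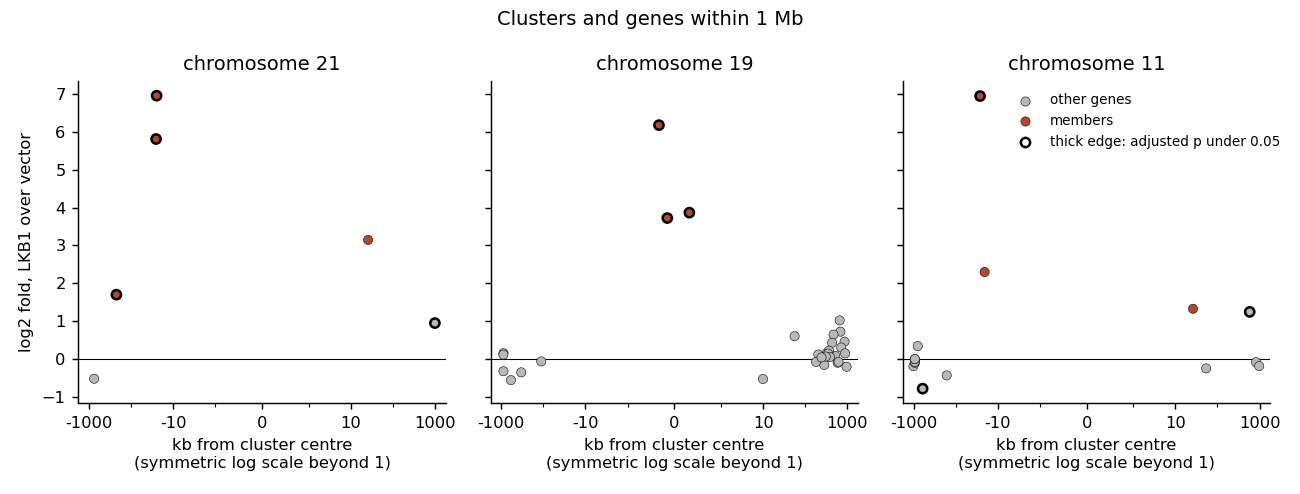
Log2 fold (LKB1 over vector, y axis) of the cluster genes and of other rows with at least 40 reads within 1 Mb, by distance in kb from the cluster centre in the direction of transcription (x axis, symmetric log scale beyond 1 kb); thick edges mark an adjusted p under 0.05. Called hairpins lie between 3.72 and 6.95, and the other rows between -0.78 and 1.25. Folds of hairpins with 0 reads in the vector line depend on the prior count of the fit.

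Genes of the machinery that makes and uses microRNAs were called in both directions. Of 18 biogenesis and effector genes with at least 40 reads 2 rose, 1 fell and 15 were not called, with a median log2 fold of -0.05. Over all 14387 rows with at least 40 reads 12.6% were called, 5.77% higher and 6.86% lower, with a median of -0.02. The list was drawn up by hand with earlier results of these data known, so nothing is read from its count. DDX17, a helicase of the DROSHA complex, rose by 0.55 on the log2 scale (adjusted p = 0.00329 in the authors' deposited table). TNRC6C, whose protein links Argonaute to deadenylases, rose to 661 reads in the LKB1 line, against 432 in the vector line. EIF2C2, the older symbol of Argonaute 2, fell to 1486 reads in the LKB1 line, against 2030 in the vector line. DICER1 had 1763 reads in the LKB1 line and 1289 in the vector line (adjusted p = 0.110, not called).

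The LIN28 genes, whose proteins block let-7 maturation, were almost silent in both lines. LIN28A had 1 read in the LKB1 line and 2 in the vector line, and LIN28B had 1 in the LKB1 line and 4 in the vector line. The 4 genes of let-7 turnover with at least 40 reads were DIS3L2 and XRN2, both exonucleases, and the terminal uridylyltransferases ZCCHC6 and ZCCHC11. None of them was called by the authors' edgeR values, and 0 had an unadjusted p under 0.05. With an assumed biological variation of 0.2 also 0 were called, but that setting calls fewer rows in general and adds nothing here. Over all rows with at least 40 reads 12.6% were called, so nothing is read from the count of these 4. The log2 folds of the 4 genes lay between -0.11 and 0.16.

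Genes known as let-7 targets were mostly not called. Of 30 with at least 40 reads 1 rose, 5 fell and 24 did not pass the test. Over all rows with at least 40 reads 5.77% were called higher and 6.86% lower. The median log2 fold was -0.05 over the list against -0.02 over all such rows. The list was drawn up with earlier results of these data known, so nothing is read from its count. CCND2, a D-type cyclin gene, fell to 5 reads in the LKB1 line, against 82 in the vector line (log2 fold -4.02 with an adjusted p of 4.24e-12, authors' deposited table). IGF2BP1, an oncofetal RNA-binding protein gene, fell to 3 reads in the LKB1 line, against 43 in the vector line (log2 fold -3.79). COL3A1, a fibrillar collagen gene, fell to 6 reads in the LKB1 line, against 38 in the vector line. INSR, the insulin receptor gene, was the one that rose, to 1294 reads in the LKB1 line, against 711 in the vector line. HMGA2, a chromatin protein gene and the textbook target, fell to 1032 reads in the LKB1 line, against 1487 in the vector line (log2 fold -0.58 with an adjusted p of 0.0114, authors' deposited table), and HMGA1 fell by 0.45 on the log2 scale; both were named after their values were seen.

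The let-7 seed pairs with CTACCTC in a transcript. The 3′ UTR of HMGA2 (ENST00000403681.6 in GENCODE 29, chromosome 12, 3006 bases) holds this motif 4 times, and the first copy, at bases 24 to 30 of the UTR, is shown with the motif in capitals because an A follows it, opposite base 1 of let-7.
HMGA2 site: ccaacgttcgatttCTACCTCagcagcag
IGF2BP1 also held 4 copies and COL3A1 held 1, while CCND2 and INSR held 0 in the UTR used. A match is a description of letters, not a site in use.

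Of 14 miR-99/100 targets with at least 40 reads 1 rose, 2 fell and 11 were not called, with a median log2 fold of -0.18. Over all rows of that depth 5.77% were called higher and 6.86% lower, and nothing is read from the count of the list. FZD8, a Wnt receptor gene, fell to 21 reads in the LKB1 line, against 275 in the vector line (log2 fold -3.75 with an adjusted p of 5.44e-31, authors' deposited table). CTDSPL, a small phosphatase gene, rose to 2343 reads in the LKB1 line, against 1612 in the vector line, and EIF2C2, given above, fell. IGF1R, the growth factor receptor gene that is also on the let-7 list, had 1189 reads in the LKB1 line and 1579 in the vector line (adjusted p = 0.0615 in the authors' deposited table).

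Of 24 miR-125 targets with at least 40 reads 2 rose, 1 fell and 21 were not called, with a median log2 fold of -0.0035. The shares over all rows of that depth were 5.77% higher and 6.86% lower, and nothing is read from this count either. KLF13, a zinc finger factor gene, rose to 807 reads in the LKB1 line, against 270 in the vector line, and its 3′ UTR held 3 copies of the miR-125 motif. MUC1, a membrane mucin gene, rose to 104 reads in the LKB1 line, against 31 in the vector line. DUSP6, a phosphatase of ERK, fell to 1097 reads in the LKB1 line, against 2490 in the vector line, and held 0 copies. ETS1, a transcription factor gene, had a log2 fold of -0.40 (adjusted p = 0.0617 in the authors' deposited table).

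**Figure D5:**
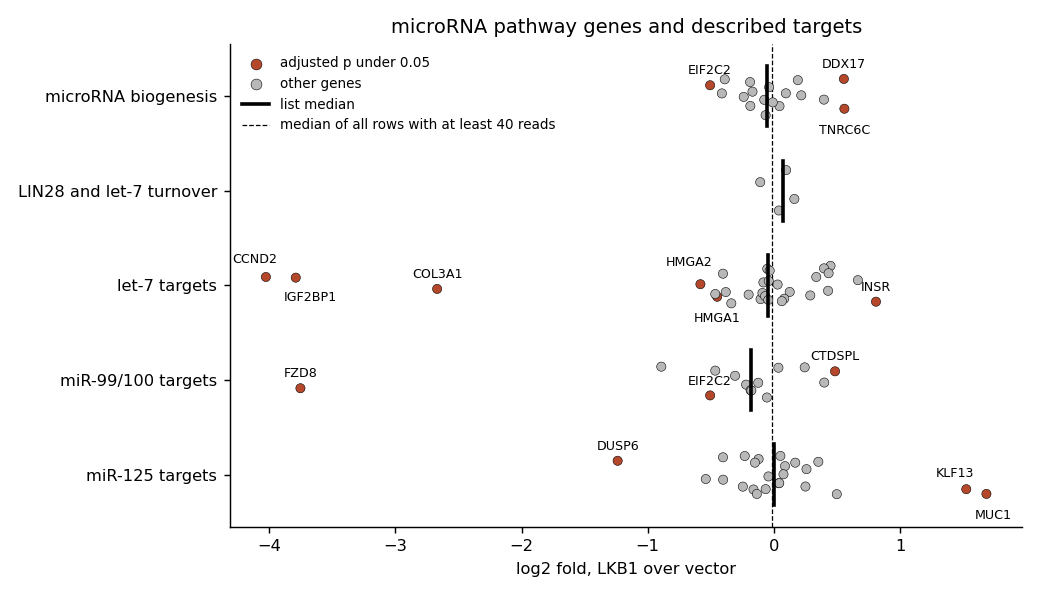
Log2 fold (LKB1 over vector, x axis) of each gene with at least 40 reads in 5 hand-drawn lists (rows); coloured points have an adjusted p under 0.05, black bars are list medians, and the dashed line is the median over all rows with at least 40 reads. Most points lie near the dashed line, and CCND2, IGF2BP1 and FZD8 lie furthest below it.

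Beyond the named targets, messages with a seed match were compared with those without, over 10064 of the 10439 protein-coding rows with at least 200 reads (96.4%), those with a 3′ UTR of at least 50 bases in GENCODE 29. The motifs, read on the sense strand of the transcript, were CTACCTC for let-7, TACGGGT for miR-99/100 and CTCAGGG for miR-125. The let-7 motif was in 10.2% of the UTRs, and the median log2 fold was -0.014 with it and -0.0088 without it, a difference of -0.0057 that was -0.0226, -0.0486 and -0.0225 in short, middle and long UTRs. The miR-99/100 motif was in 1.20%, and the median with it was lower by a difference of -0.0215. The miR-125 motif was in 15.3%, and the difference was 0.0281. UTRs with the let-7 motif were longer, with a median of 2883 bases against 1080 without it. These differences carry no test.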

How the data were processed

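RNA-seq was made from 2 LKB1 and 2 vector libraries of MDA-MB-231. Per the submitters' processing notes, CASAVA 1.8.2, TopHat2 2.0.6, edgeR 2.6.0 and hg19 were used. For the counter, annotation, strand setting and multi-mapping reads, nothing is given in the sources used here. The authors deposited 1 comparison table with a linear fold ratio, a log2 fold, and, per gene, a p-value with its FDR-adjusted value, and no value per library. Read totals per line were recovered as the whole numbers that, with prior reads of 0.254868 (LKB1) and 0.245132 (vector), give the deposited fold; 27312 of 28242 rows with reads (96.7%) were resolved, up to 3000 reads. Recovery was tested on simulated data. The depth behind a value is its read total, and the depth of each library is unknown.

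Calls are the authors' deposited edgeR adjusted p under 0.05. No test was refitted across libraries, and where duplicates came from is not given, so a p-value covers spread among these libraries, which may be technical. Counts were read over rows with at least 40 reads (20 for microRNAs, 200 for seed matches). Ratios carry exact 95% intervals for counting error, and a group at 0 was set to a floor of 3 reads.

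The genes and lists were chosen with earlier results of these data known. Named are all 10 cluster genes, STK11, up to 4 genes of each list by smallest p, the 2 nearest rows on each side of each cluster, and the 3 largest rises and falls among other called microRNAs; others are marked as chosen after their values were seen. UTRs were those of APPRIS principal transcripts, longest UTR first. Alternatives were a threshold of 0.01, adjustment over rows with at least 40 reads, an assumed variation of 0.2, and other seed settings. Python 3.11.15, pandas 2.3.3, numpy 2.4.6 and scipy 1.17.1 were used.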

Additional observations from a re-analysis of the deposited data

How the results depend on the processing

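No paired analysis was possible because the table holds no value per library, and leaving out a library was not possible either. Of 83 alternatives 70 kept the call or stayed close to the main value. This tally is no measure of robustness. It includes the log2 folds of all 10 cluster genes after the same shift of 0.0105, which could not change them much. It also counts the fall from 7 to 5 called cluster genes, given next, as close. The 7 called cluster genes became 6 at a threshold of 0.01, which MIR99A missed (adjusted p = 0.0119 in the authors' deposited table), and 5 when adjusted over rows with at least 40 reads, which MIR99A and MIR100 do not reach. An assumed variation of 0.2 could be tried only on rows with recovered reads, of which the authors called 1857 (787 higher, 1070 lower) of their 2007; it called 912 (280 higher, 632 lower). Requiring also a 2-fold difference left 1032 (341 higher, 691 lower). With that variation 0 biogenesis genes, 3 let-7 targets and 1 miR-99/100 target were called, against 2, 5 and 3 with recovered reads; DDX17 and HMGA1 have none. At a threshold of 0.01 there was 1 biogenesis gene and 1 miR-99/100 target, and 4 let-7 targets. Adjusted over rows with at least 40 reads, 2218 rows, 9 let-7 targets (3 higher, 6 lower), 4 miR-99/100 targets and 4 miR-125 targets were called, against 2007, 6, 3 and 3, and 22 microRNA genes against 29; 0 other let-7 loci were called against 1, since MIRLET7I has fewer reads. In UTRs of middle length the differences with and without a seed match were -0.0486 for let-7, -0.132 for miR-99/100 and -0.0207 for miR-125, and in short UTRs the miR-125 difference was -0.0112, so the sign of the miR-125 difference, 0.0281 over all UTRs, turned. For let-7 the difference was -0.0226 in short and -0.0225 in long UTRs and -0.0185 with 8 bases, against -0.0057 over all UTRs, and for miR-99/100 it was -0.0566 in long UTRs against -0.0215. Short UTRs held 2 genes with a miR-99/100 match, too few for a value. The cause was not tested. UTR length classes, the 2-fold limit and rows of type miRNA were chosen after seeing the data. At 3 or fewer reads in both lines no difference in a hairpin can be shown.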
